A study of Schmidtea mediterranea with 10 samples.

Results

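The gene described here is piwi-1 (SMED30007406), 1 of 36035 genes measured in sorted cells of the planarian flatworm Schmidtea mediterranea, followed through all 10 libraries of the series. It was chosen by its gene ID, which the study ties to the name piwi-1. The study dissociated whole, uninjured worms and stained the cells for chosen transcripts by hybridization chain reaction, in which fluorescent hairpins build up on probes bound to a transcript. Cells were then sorted into a bright (positive) and a dark (negative) gate, and polyadenylated RNA of each gate was sequenced. The groups were 4 agat-positive and 4 agat-negative libraries, sorted after staining with a pool of probes against the agat-1, agat-2 and agat-3 transcripts, and 1 piwi-1-positive and 1 piwi-1-negative library, sorted after staining for piwi-1 itself. All 10 came from wild-type asexual animals of the clonal CIW-4 strain, kept at 20 °C and starved for 2 weeks or longer, so no group carries a mutation, a treatment or an injury. About 160 worms supplied all stainings together. The labels call the agat libraries biological replicates but do not say whether their cells came from separate pools of worms, so p-values measure the spread between these libraries.

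PIWI proteins bind small RNAs called piRNAs and, with them, silence transposons. In planarians the piwi-1 transcript is the standard mark of neoblasts, the dividing cells from which every other cell type of the adult worm is made. The agat genes are marks of late epidermal progenitors, non-dividing descendants of neoblasts that move outward to join the epidermis, and encode relatives of L-arginine:glycine amidinotransferase, an enzyme of creatine synthesis. The gates therefore set cells bright for piwi-1, cells bright for agat and the cells dark for each stain side by side. A gate is named by its stain and is not a pure cell type. No other marker of these cells can be checked, because gene names are not paired with the IDs in the files, and no sequence of piwi-1 was at hand. The probe was designed on a piwi-1 transcript record of its own, which the study links to SMED30007406.

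The libraries held 35081410 to 51821158 reads assigned to genes, of which 7178 to 44450 fell on piwi-1. Between 2.28% and 3.14% of reads mapped to several places and were not assigned. Planarians have other piwi genes, and reads shared with them cannot be seen in these counts. In agat-negative replicate 4, 34.5% of reads were unmapped, and 29.7% in the piwi-1-positive library, against 19.7% to 24.5% in the other libraries.

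Staining for piwi-1 separated the pair of libraries in piwi-1 level. piwi-1 stood at 1267 CPM (counts scaled to the assigned total of a library; 95% exact Poisson interval 1255 to 1279) in the piwi-1-positive library and at 199.9 CPM (195 to 205) in the piwi-1-negative library. In TPM, which also scales by transcript length, the levels were 567 and 80.0. The negative library thus kept a piwi-1 level that was 15.8% of the positive one in CPM and 14.1% in TPM. The ratio of CPM was 6.34 (95% exact interval 6.18 to 6.50), and 121 of the 8146 genes with a mean of 10 CPM or more in this pair had a higher ratio. Each gate has 1 library and was set on piwi-1, so this ratio checks the sort, and its interval covers counting error only. With TMM scaling, which corrects for the few genes that take up much of a library, the ratio was 5.32, and in TPM it was 7.09.

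Between these extremes lay 3 of the 4 agat-positive libraries and all 4 agat-negative ones. In agat-positive replicates 1 to 4 its level was 179.9, 382, 393 and 309 CPM. In agat-negative replicates 1 to 4 its level was 573, 472, 545 and 398 CPM. All 4 agat-positive libraries stood below all 4 agat-negative ones, but the lowest negative library was only 1.01 times the highest positive one in CPM, 1.08 times in TMM-scaled CPM and 1.04 times in TPM. The agat-positive libraries averaged 316 ± 98.1 CPM and the agat-negative libraries 497 ± 78.5 CPM (SD, n = 4 each). Fewer cells with piwi-1 and less piwi-1 RNA in each cell cannot be told apart in such bulk libraries.

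In TPM the same order appeared. agat-positive replicates 1 to 4 had 66.95, 157, 163 and 110.3 TPM, with a mean of 124 ± 44.9, and agat-negative replicates 1 to 4 had 245, 201, 238 and 169 TPM, with a mean of 213 ± 35.0 (SD, n = 4 each). agat-positive replicate 1 was the lowest of all 10 libraries, below the piwi-1-negative library, while the other agat-positive libraries were above it. Among the agat-positive libraries piwi-1 varied 2.43-fold in TPM, and among the agat-negative ones 1.45-fold.

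**Figure D1:**
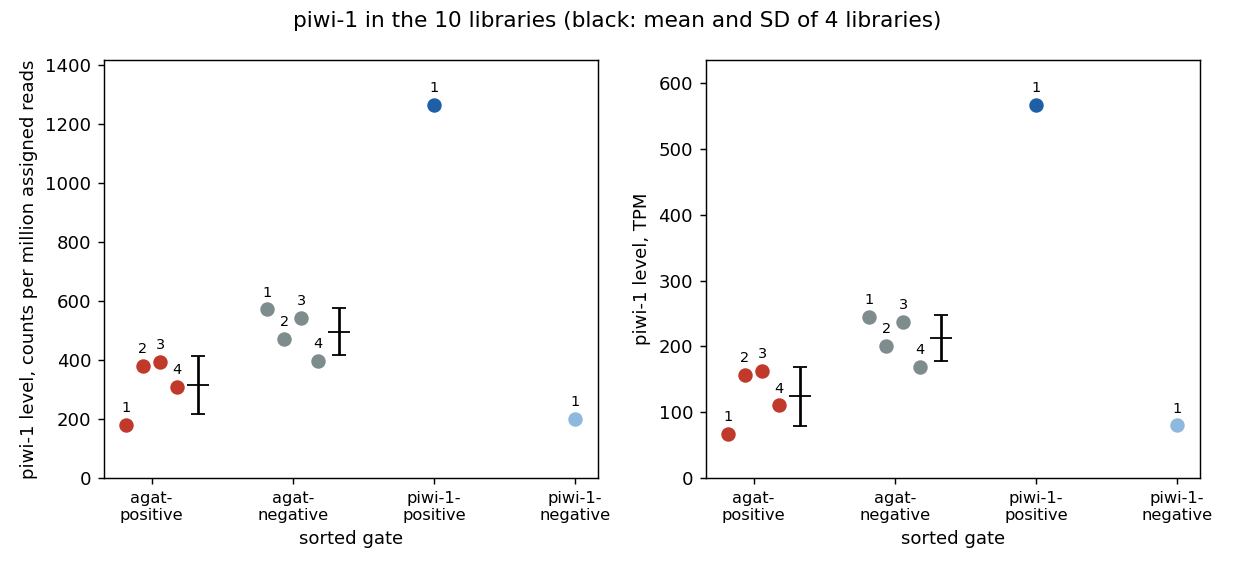
piwi-1 in each library in CPM (left) and TPM (right), by sorted gate. Points are libraries with their replicate numbers, and black bars give the mean and SD of the 4 agat-positive or 4 agat-negative libraries. The piwi-1-positive library stands alone at 1267 CPM, the agat-positive libraries lie between 179.9 and 393 CPM, the agat-negative ones between 398 and 573 CPM, and the piwi-1-negative library is at 199.9 CPM.

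piwi-1 was an abundant transcript in every gate. Ranked by TPM among all 36035 genes, it was number 1270, 708, 683 and 867 in agat-positive replicates 1 to 4 and number 456, 582, 485 and 635 in agat-negative replicates 1 to 4. It was number 219 in the piwi-1-positive library and 1231 in the piwi-1-negative library. Even at its lowest, in agat-positive replicate 1, it was among the top 4.96% of genes with a TPM above 0, and in the piwi-1-positive library among the top 0.821%. Its share of assigned reads ran from 0.0180% in agat-positive replicate 1 to 0.127% in piwi-1-positive cells.

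The agat comparison asks how much of the neoblast mark is left in cells sorted for agat transcripts, which the agat gate did not select on. In edgeR's quasi-likelihood test over the 8 agat libraries the log2 fold change of piwi-1, agat-positive over agat-negative, was -0.55 (SE 0.21, 95% interval -1.01 to -0.09), a level 1.47-fold lower in agat-positive cells. The edgeR adjusted p over the 22954 genes tested was 0.391, so piwi-1 did not pass. The interval is not adjusted for the number of genes. The transcripts on which the gate was set did not pass this fit either. They were higher in agat-positive cells, 24.4-fold for agat-1, 24.0-fold for agat-2 and 34.3-fold for agat-3. In that order their edgeR adjusted p was 0.200, 0.200 and 0.207. A gene could thus fail here despite a large change, so the failure of piwi-1 does not show an unchanged level. The p of piwi-1 alone was 0.0227 in edgeR, which placed it 1332nd of all genes tested. In this comparison edgeR called 2 genes, or 0.00871% of those tested, and piwi-1 was not among them. This number was not stable: DESeq2 called 481 genes (403 higher, 78 lower), piwi-1 not among them (DESeq2 adjusted p = 0.349). With agat-positive replicate 3 left out edgeR called 98 genes, and it called 0 when either agat-positive replicate 4 or agat-negative replicate 1 was left out. Both genes called by edgeR were higher in agat-positive cells, SMED30013218 by 3.72 (SE 0.34; adjusted p = 0.00801, edgeR) and SMED30029782 by 4.42 (SE 0.50; adjusted p = 0.0352, edgeR) on the log2 scale, and are named because the count is small, after their values were seen.

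An exact two-sided permutation test on the single value of piwi-1, log2(TMM-scaled CPM + 1), gave a mean difference of -0.60 and p = 0.0286, the smallest p that the 70 assignments of 4 and 4 libraries allow. That p says only that the gates did not overlap. Among 8376 genes with a mean of 10 CPM or more over all libraries, 381 (4.55%) had all agat-positive libraries below all agat-negative ones in TMM-scaled CPM. That number depended on the scale, with 778 genes in library-size CPM and 1293 in TPM. The median log2 fold change of all genes was -0.06 under TMM scaling, -0.17 when scaled by library size alone, and -0.23 in log2(TPM + 1). Relative to that median, piwi-1 stood at -0.50, -0.48 and -0.61.

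A single library shaped the size of this difference. Without agat-positive replicate 1, the library lowest in piwi-1, the log2 fold change was -0.37 (95% interval -0.72 to -0.02, edgeR adjusted p = 0.792). Leaving out any other agat library gave -0.65 to -0.51. Replicates 1 to 3 carry one form of column name and both libraries numbered 4 another, and what separates them is not given. Without both libraries numbered 4 the log2 fold change was -0.56 (edgeR adjusted p = 0.591), and between the libraries numbered 4 the ratio of agat-positive to agat-negative CPM was 0.778 (95% exact interval 0.760 to 0.796, counting error only). In agat-negative replicate 4, the library with the most unmapped reads, piwi-1 was lowest of its gate in CPM but above replicate 2 in TMM-scaled CPM, at 467 against 413. Without it the log2 fold change was -0.56.

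**Figure D2:**
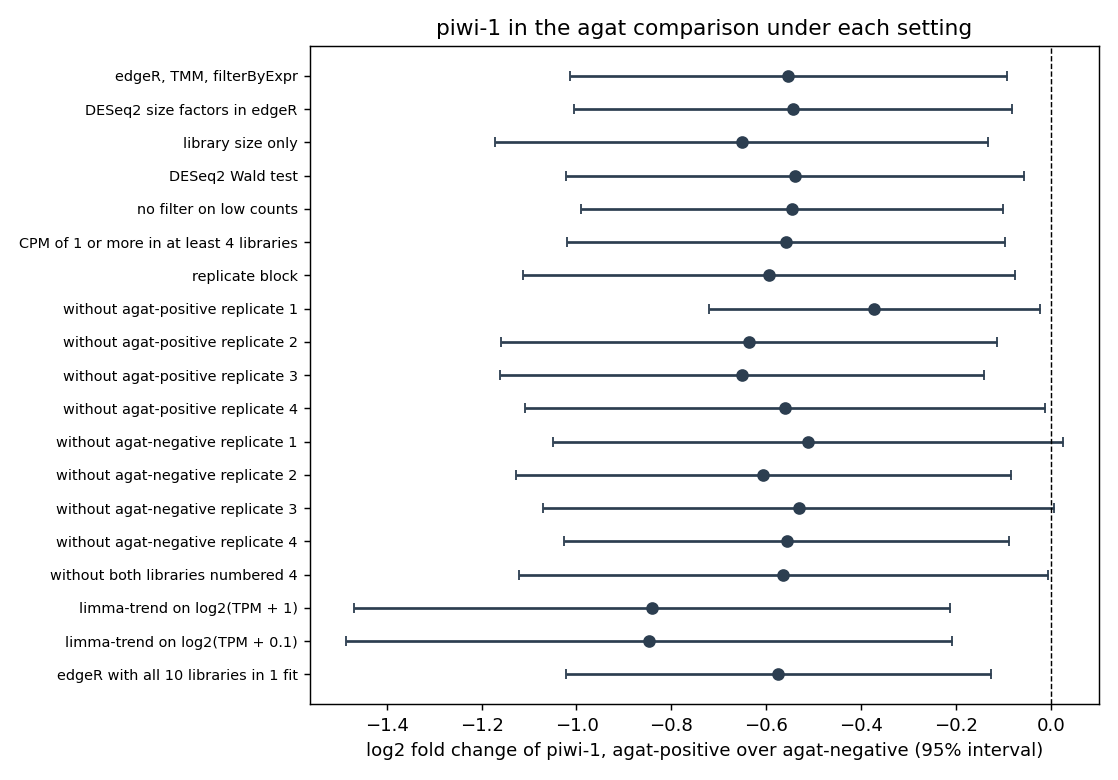
Log2 fold change of piwi-1, agat-positive over agat-negative, under each setting, with its 95% interval; the dashed line marks no difference. Estimates run from -0.85 to -0.37 and all lie below 0, and the interval crosses 0 without agat-negative replicate 1 or replicate 3.

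In edgeR's estimate piwi-1 varied between libraries about as other genes of its level did. That estimate draws each gene toward others of its level, so part of this closeness is built in. Its biological coefficient of variation in the edgeR fit was 0.276, against a median of 0.268 in the 205 other genes within 0.5 log2 units of its mean level. Of those genes, 56.1% varied less than piwi-1 did.

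Against the piwi-1 sort, agat-positive cells held far less piwi-1 than piwi-1-positive cells. Their mean was 24.9% of the piwi-1-positive level in CPM and 21.9% in TPM. In 1 edgeR fit of all 10 libraries with a mean for each gate, the log2 fold change, agat-positive over piwi-1-positive, was -1.93 (SE 0.29, 95% interval -2.56 to -1.30, edgeR adjusted p = 0.00173). This fit tested 29158 genes and called 9.9% of them in this contrast (2886 genes, but 1646 to 1672 without agat-positive replicate 2, 3 or 4, and 1152 in limma), so piwi-1 passed among many genes, and 3560 genes had a more negative value. The lone piwi-1-positive library is assumed to vary like the agat libraries. Cells of that library were selected by piwi-1, so the direction of this contrast was set by the sort. Its p is therefore not evidence about agat-positive cells. They were also stained separately from the agat libraries, so the staining and the gate cannot be told apart here.

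Between agat-positive and piwi-1-negative cells the difference in piwi-1 did not pass, and its interval is wide. The log2 fold change, agat-positive over piwi-1-negative, was 0.48 (SE 0.34, 95% interval -0.25 to 1.21, edgeR adjusted p = 0.708), an interval that reaches from somewhat below to more than a doubling. By library, the ratio of CPM to the piwi-1-negative library was 0.8996 in agat-positive replicate 1, 1.91 in replicate 2, 1.97 in replicate 3 and 1.55 in replicate 4. The direction was thus shared by 3 of 4 libraries. Without agat-positive replicate 1, the library lowest in piwi-1, the log2 fold change was 0.66. Its interval, 0.09 to 1.22, no longer crossed 0, but piwi-1 still did not pass. Without replicate 2, 3 or 4 it was 0.40, 0.38 and 0.47, each with an interval that crossed 0. The fit called 1 gene in this contrast, 0.00343% of those tested, SMED30012382 with a log2 fold change of -6.74 (edgeR adjusted p = 0.0195), named after its value was seen. DESeq2 called 228 genes here (150 higher, 78 lower), without piwi-1 (DESeq2 adjusted p = 0.729), and edgeR called 0 without agat-positive replicate 1 or 2.

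agat-negative cells, sorted as dark for the agat probes though not free of agat transcripts, lay further up. Every agat-negative library exceeded the piwi-1-negative library, by 1.99-fold to 2.86-fold in CPM. The log2 fold change, agat-negative over piwi-1-negative, was 1.06 (SE 0.35, 95% interval 0.29 to 1.82), but the edgeR adjusted p was 0.471, in a contrast where 5 genes or 0.0171% passed. All 5 were lower in agat-negative cells; the pair with the largest changes, chosen after their values were seen, was SMED30012382 at -7.57 (edgeR adjusted p = 0.00827) and SMED30034554 at -4.21 (edgeR adjusted p = 0.0455). DESeq2 had the opposite balance, with 118 genes higher and 28 lower, without piwi-1 (DESeq2 adjusted p = 0.171), and edgeR called 0 without agat-negative replicate 1 or 3 and 2 higher and 5 lower without replicate 4. Against the piwi-1-positive library the log2 fold change of piwi-1 in agat-negative cells was -1.35 (SE 0.30, 95% interval -2.005 to -0.70, edgeR adjusted p = 0.0178), with 9.29% of genes called in that contrast (2708 genes, but 5587 without agat-negative replicate 4, 4117 in DESeq2 and 703 in limma). In limma on log2(TPM + 1) this value was -1.42 and did not pass (limma adjusted p = 0.0987). Here too the piwi-1-positive library was selected on piwi-1, so the sort set the direction. Contrasts with the same piwi-1 library share that library, so they are not separate evidence.

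**Figure D3:**
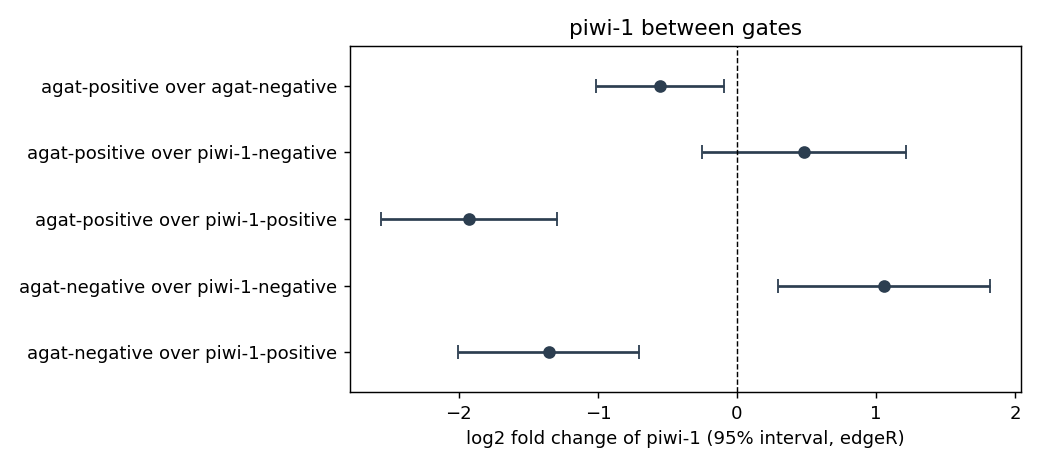
Log2 fold changes of piwi-1 between gates with 95% intervals from edgeR, not adjusted for the number of genes; the dashed line marks no difference. Both contrasts with the piwi-1-positive library lie wholly below 0, at -1.93 for agat-positive and -1.35 for agat-negative cells, and the interval of agat-positive over piwi-1-negative crosses 0.

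From high to low, the gates stood in the order piwi-1-positive, agat-negative, agat-positive, piwi-1-negative. Of the neighbours in this order, the difference between agat-negative and piwi-1-positive cells passed in edgeR but not in limma, while that between agat-positive and agat-negative cells did not, and neither did that between agat-positive and piwi-1-negative cells. The piwi-1-positive place at the top was set by the sort, which selected 1 library on piwi-1 itself. On a line from the piwi-1-negative level to the piwi-1-positive level, the agat-positive mean lay 10.9% of the way up in CPM and 9.08% in TPM. The agat-negative mean lay 27.8% of the way up in CPM and 27.3% in TPM. These positions describe the levels and are not shares of cells.

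The agat transcripts, on which the agat gate was set, differed 5.74-fold in summed TPM among the agat-positive libraries, where piwi-1 differed 2.43-fold. Their summed level was 2825, 616, 492 and 2825 TPM in agat-positive replicates 1 to 4 and 23.9, 82.4, 182 and 65.95 TPM in agat-negative replicates 1 to 4. It was 297 TPM in the piwi-1-positive library, above every agat-negative library, and 178 TPM in the piwi-1-negative library. The piwi-1-positive gate was thus not free of the agat marks. In agat-positive libraries piwi-1 stood at 0.0237, 0.255, 0.331 and 0.0390 of the summed agat level in replicates 1 to 4. In agat-negative libraries that proportion ran from 1.302 to 10.3.

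Within the agat-positive gate, the libraries with more agat held less piwi-1. Replicates 1 and 4, with about 2825 TPM of agat each, had 66.95 and 110.3 TPM of piwi-1, and replicates 2 and 3, with 616 and 492 TPM of agat, had 157 and 163 TPM of piwi-1. Of the 6 pairs of agat-positive libraries, 5 had piwi-1 and agat in opposite order in TPM, and 6 in CPM and in TMM-scaled CPM. The pair that differs is replicates 1 and 4, whose agat sums were nearly equal. The same libraries also stood apart in the chi-square of their counts averaged over genes. It was 37.3 between replicates 1 and 4 and 10.7 between replicates 2 and 3, against 146 to 209 between a library of one pair and a library of the other. A few abundant genes can carry this mean, and the genes that differ were not counted. The order of piwi-1 and agat in this gate is thus a contrast between 2 pairs of libraries that also differ beyond these genes. The part of that wider difference in it was not tested. In the agat-negative gate 3 of 6 pairs were in opposite order in TPM and in CPM, and 4 in TMM-scaled CPM. The 8 libraries fall into gates separated by agat itself, with 4 libraries each, so no correlation is given, and the relation within gates was not tested.

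**Figure D4:**
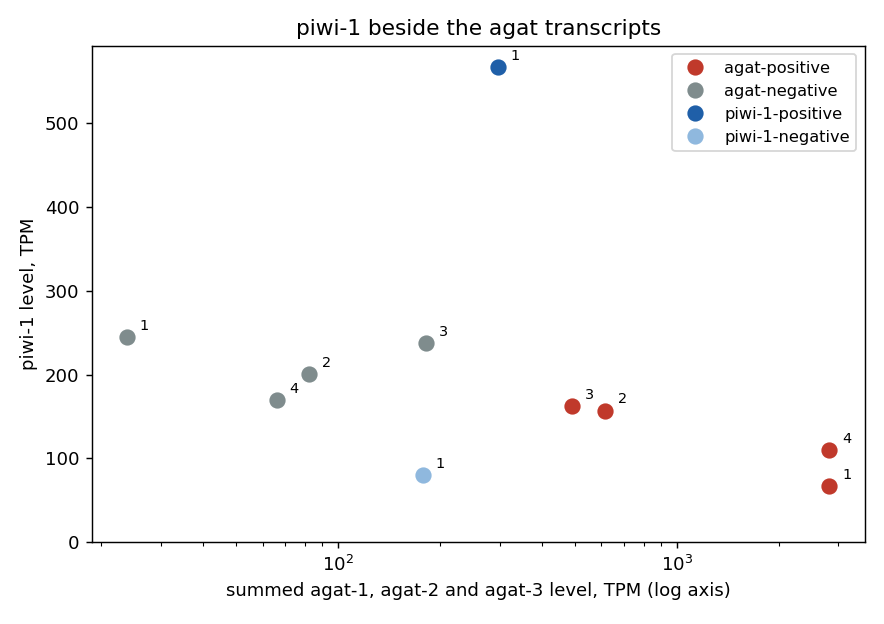
piwi-1 against the summed level of agat-1, agat-2 and agat-3 in each library, both in TPM, with agat on a log axis; colours give the gate and numbers the replicate. agat-positive replicates 1 and 4 lie at the lower right, with 66.95 and 110.3 TPM of piwi-1 beside about 2825 TPM of agat, and the piwi-1-positive library stands apart at 567 TPM.

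The agat reads themselves took up little of any library. The 3 agat genes held 0.0573% to 0.383% of assigned reads in agat-positive libraries and 0.00269% to 0.0202% in agat-negative ones. In TPM the share of another gene stood out, and its part in the piwi-1 values was not tested. SMED30005838 held 10.7% and 11.2% of all TPM in agat-positive replicates 1 and 4, though 1.67% and 1.77% of their reads, while the highest gene of each other library held 3.62% to 5.58% of TPM. In those same libraries 1 CPM of piwi-1 was worth 0.372 and 0.356 TPM, against 0.412 and 0.414 in agat-positive replicates 2 and 3 and 0.425 to 0.436 in the agat-negative libraries. With the 10 highest genes of each library left out of the total, a step added after seeing the data, piwi-1 averaged 169 ± 52.9 TPM in agat-positive and 279 ± 44.9 TPM in agat-negative libraries (SD, n = 4 each). The groups still did not overlap, with 212 TPM as the highest positive and 223 TPM as the lowest negative library.

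The order of gates was read off piwi-1 itself, so the number of genes that share it is a description and no test of piwi-1. Of the 8376 genes of 10 CPM or more, 71 (0.848%), piwi-1 included, had the piwi-1-positive library above all agat-negative libraries, these above all agat-positive libraries, and the piwi-1-negative library below all agat-negative ones, in TMM-scaled CPM. In 47 of the 71 the piwi-1-negative library lay within the range of the agat-positive libraries, as it did for piwi-1. In 33 of the 71 the ratio of piwi-1-positive to piwi-1-negative library was 4 or more, as it was for piwi-1. The number with this order was 229 (2.73%) in library-size CPM and 338 (4.04%) in TPM, and 112 without agat-negative replicate 4 and 154 without agat-negative replicate 2.

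Among 7569 genes of 10 CPM or more in both the agat and the piwi-1 libraries, 140 had a log2 ratio of 2 or more between the positive and the negative library of the piwi-1 sort. The agat log2 fold changes of these 140 had a median of -0.43, against -0.01 over all 7569. Of the 140, 119 were below 0. The share of all 7569 below 0 was not counted, though their median was itself just below 0. piwi-1 itself belongs to the 140. At -0.55 it was lower than their median, and 56 of the 140, piwi-1 included, were at or below its value. Of all 7569 genes, 460 were at or below it (6.08%).

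**Figure D5:**
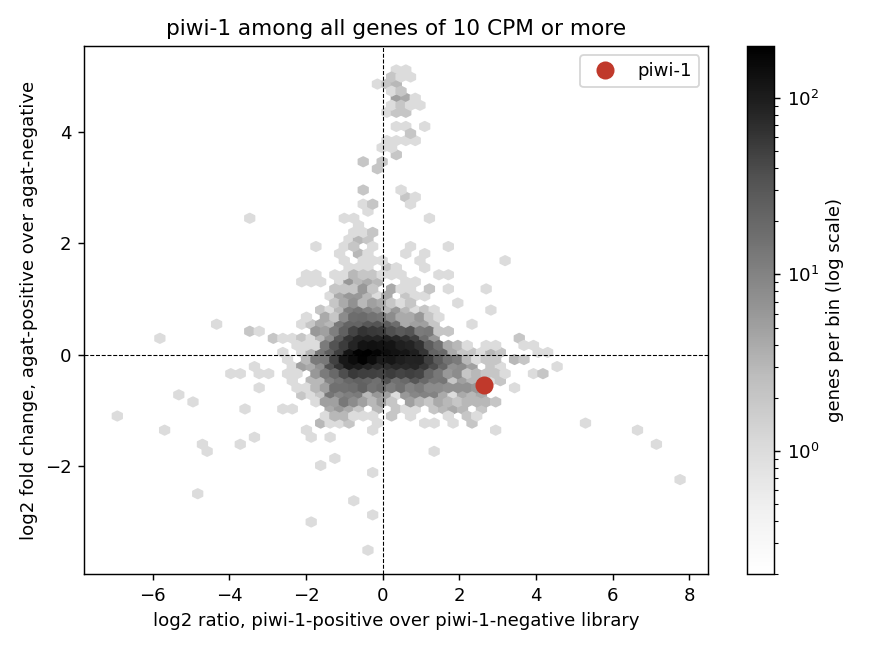
Each gene's log2 ratio of the piwi-1-positive over the piwi-1-negative library (horizontal) against its log2 fold change, agat-positive over agat-negative (vertical), for 7569 genes; grey depth gives the number of genes per bin on a log scale and the red point is piwi-1. piwi-1 lies at the right, at 2.66, and below 0, at -0.55.

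By Pearson's r of log2(TMM-scaled CPM + 1) over the 10 libraries, 78 of 8375 other genes (0.931%) reached 0.9 or more with piwi-1. All points share the same libraries and the piwi-1-positive library lies far from the rest, so r is a description. The gene most like piwi-1 was SMED30004085 (r = 0.989, and 0.975 over the 8 agat libraries). In agat-positive replicates 1 to 4 it had 9.03, 18.01, 17.1 and 15.1 CPM. In agat-negative replicates 1 to 4 it had 27.3, 21.5, 27.7 and 16.7 CPM. The piwi-1 sort gave it 52.1 CPM in positive and 8.36 CPM in negative cells. Its agat gates overlapped in CPM, since agat-negative replicate 4 fell below agat-positive replicates 2 and 3. Next was SMED30029203 (r = 0.988, and 0.968 over the 8 agat libraries), with a mean of 22.5 ± 6.98 CPM in agat-positive libraries and 35.7 ± 2.76 CPM in agat-negative libraries (SD, n = 4 each). The piwi-1 sort gave it 86.0 CPM in positive and 16.1 CPM in negative cells.

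At the opposite end stood SMED30000373 (r = -0.983) and SMED30026464 (r = -0.981), whose likeness depended on the scale, with r of -0.60 and -0.77 in log2(TPM + 1). SMED30000373 averaged 69.2 ± 8.86 CPM in agat-positive libraries and 63.4 ± 8.16 CPM in agat-negative libraries (SD, n = 4 each), and had 40.7 CPM after the piwi-1 sort in positive and 67.1 CPM in negative cells. SMED30026464 averaged 21.8 ± 3.45 CPM in agat-positive libraries and 17.5 ± 4.46 CPM in agat-negative libraries (SD, n = 4 each), and had 8.12 CPM in positive and 23.0 CPM in negative cells of the piwi-1 sort. Of the 78 genes, 35 also reached 0.9 over the 8 agat libraries, where 101 of the 8375 genes did (1.21%). The 78 were chosen over 10 libraries that include these 8, so part of this overlap is built in.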

How the data were processed

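Per the labels' protocols, worms were taken apart and fixed together in an acetic acid and methanol mix (ACME, about 60 minutes), strained at 70 µm and sorted, and RNA was amplified with SMART-seq v4 and made into Nextera XT libraries, which carry no molecular identifiers. The deposited files are a table of raw counts per gene and a table of TPM values, made by the authors; RSEM 1.3.1 and STAR 2.7.10b are named in the submitters' processing notes. The build, the annotation and whether counting used strand are not stated in these sources, so overlapping genes cannot be told apart. The 4 rows that name no gene, with 22.8% to 37.0% of a library's reads, were left out.

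The deposited counts were tested with edgeR 4.0.16 (quasi-likelihood, TMM, filterByExpr, robust, Benjamini-Hochberg adjusted p under 0.05) in R 4.3.3, without a replicate block, since same-numbered libraries deviated together only at r of -0.125 to 0.0497. SEs come from the estimate and its F statistic. Alternatives used DESeq2 1.42.0, limma 3.58.1 and other filters, scalings and library sets. Exact permutation tests used scipy 1.17.1. Levels are CPM of assigned counts unless stated; intervals on single libraries cover counting error only, since PCR copies count as reads. Libraries of 1 gate differed far beyond sampling noise (chi-square per gene 10.7 to 268).

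piwi-1, the lists and the comparisons were chosen with earlier results of these data known. The genes named are the probe targets, and the 2 most and 2 least like piwi-1 by Pearson's r; genes called in counts of 5 or fewer were named after their values were seen, at most 2 each way since the IDs have no names. Scripts were tested on simulated data.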

Additional observations from a re-analysis of the deposited data

How the results depend on the processing

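Under all 18 alternatives the piwi-1 log2 fold change, agat-positive over agat-negative, stayed below 0 (-0.85 to -0.37) and did not pass (adjusted p 0.228 to 0.828), with the replicate block included (-0.59, edgeR adjusted p = 0.662). Whether same-numbered libraries are paired is not given, and the block rests on a shared number only. Agat-positive over piwi-1-positive stayed at -2.26 to -1.75 under all 9 alternatives. Both contrasts with the piwi-1-negative library stayed uncalled (0.38 to 0.66 and 1.01 to 1.39). Every alternative kept the lone piwi-1 library. The piwi-1-positive gate was set on piwi-1, so the direction of its contrasts was set by the sort. Agat-negative over piwi-1-positive lost its call in limma on log2(TPM + 1) (-1.42); the cause was not tested. In the exact permutation test, leaving out 1 library gave -0.70 to -0.38 and p = 0.0571, the smallest p that 35 assignments allow. The log2 ratio of the piwi-1 pair, 2.66 in CPM, was 2.41 with TMM and 2.83 in TPM. The median rank of piwi-1 over the libraries was 659 by TPM and 271.5 by counts, which are not length-scaled. edgeR called 2 genes between the agat gates, 1 with library size only, and 0 to 98 with 1 library left out (98 without agat-positive replicate 3). DESeq2 called 481 (403 higher, 78 lower). The count was 0 with the replicate block (948 higher and 753 lower at an unadjusted p under 0.05), 0 without both libraries numbered 4 (1200 and 757), and 0 in limma on TPM with either pseudocount (463 and 2426 with 1, 446 and 2379 with 0.1). At that unadjusted p, edgeR had 1208 higher and 1235 lower with TMM, and 715 and 1930 with library size only. Genes in the order of gates of piwi-1 numbered 71, 229 in library-size CPM, 338 in TPM, and 72 to 154 with 1 library left out, which loosens the condition. Genes with r of 0.9 or more numbered 78, and 277 in log2(TPM + 1). The fit of all 10 libraries and the left-out libraries in the order of gates were chosen after seeing the data. A Dixon test compared the gap beside an outermost value with the range of its group. It marked no value of the probe targets in 24 groups of 4. With 4 values it seldom marks any, and it misses a split into 2 pairs such as that of the agat-positive agat sums.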
